A study of Mus musculus with 12 samples.

Results

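HP1γ, the product of Cbx3, was immunoprecipitated with its chromatin-bound RNA from mouse fibroblast-derived cells, and 2986 of the 12622 enriched RNA regions lay where untreated and phorbol ester-treated cells both gave one. These shared regions are the 1555 of 10013 untreated regions that overlap a PMA region by at least 1 bp, and the 1431 of 2609 PMA regions that they overlap. Members were chosen by position, as found by peak calling on HP1γ immunoprecipitate (IP) against chromatin input in each condition. The overlap and every value of the peaks (fold, width, q value, member peaks) come from the contrasts that chose them. They are given below as descriptions, without tests.

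All cells derive from mouse embryonic fibroblasts that are knocked out for HP1γ and were recomplemented with it; the labels do not say whether they are 1 clone. The 12 libraries form 4 groups of 3 biological replicates: input and HP1γ IP from untreated cells, and input and HP1γ IP from cells given 100 nM PMA (phorbol 12-myristate 13-acetate) for 30 min. The libraries include neither a mock IP nor one from the knockout, so RNA held by HP1γ and RNA recovered unspecifically cannot be told apart. Read depth is unknown, and the lists carry 1 value per region and condition, read here as a mean over the peaks of single replicates ("member peaks") that were joined in it. No region has an error between cultures.

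HP1 proteins bind histone H3 methylated at lysine 9 through their chromodomain and dimerise through a chromoshadow domain. HP1γ differs from its relatives in being found within transcribed genes as well as in heterochromatin, where it has been linked to elongation and to alternative splicing. Between these domains lies a hinge that can contact RNA, and RNAchIP reads out RNA that stays with HP1γ in sonicated, DNase-treated chromatin. PMA activates protein kinase C and, through MAP kinases, signals that reach chromatin within minutes.

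Positions follow mm9, as the processing notes of the submitters name it. No mm9 genome or gene annotation was used here, so regions are named by position and not by gene, exon or intron, and no sequence is printed. Of the 1414 separate places where the lists meet, called shared stretches here, 1276 (90.2%) joined exactly 1 untreated with 1 PMA region. In 121 stretches a single PMA region met several untreated ones, 7 had a single untreated region and several PMA regions, and 10 had several of both. The shared regions made up 15.5% of the untreated list and 54.8% of the PMA list, shares that the rule itself fixes. The shares depend on the length and make-up of the lists: with 1 untreated replicate left out and 3 member peaks still required, they were 27.9% to 34.1% of the untreated list and 19.7% to 25.03% of the PMA list. With the untreated list limited to the length of the PMA list by q value they were 19.5% and 19.2%. In the full lists, shared regions held 21.2% of the bases of the untreated list and 63.2% of those of the PMA list. The stretches were 1040 bp wide at the median (quartiles 816 and 1335) and covered 1.64 Mb together.

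Partner regions mostly covered the same ground. In one-to-one pairs the PMA region covered a median of 94.7% of the untreated region (95% interval of the median 93.7 to 95.5), and the untreated region covered 76.9% of the PMA region (74.7 to 78.8). The untreated region lay wholly inside its partner in 424 pairs, the PMA region lay inside the untreated one in 177, and 675 pairs were staggered. Region centres were a median of 112 bp apart (105 to 121), and 50 pairs had centres more than 500 bp apart.

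The PMA region was the wider one in 885 of 1276 pairs, with a median of 877 bp against 729 bp and a median width ratio of 1.18 (1.15 to 1.21). It reached out by a median of 35 bp at the lower-coordinate end and by 30 bp at the other, so neither side stood out. PMA regions were also the wider ones in the whole lists (780 against 528 bp at the median) and among unshared regions (665 against 505 bp). The difference within pairs moves with which regions are counted. In the PMA list all member peaks are numbered as replicate 2 or 3, so PMA values may rest on 2 replicates; why replicate 1 has none is not known. Each region needs at least 3 member peaks. A PMA region thus always holds a replicate that gave more than 1 peak, while 768 of the 1555 shared untreated regions hold exactly 1 peak from each of 3 replicates. Among the 602 pairs with 3 member peaks on both sides the ratio was 1.34 (1.31 to 1.4). When the untreated list was limited to regions that still hold 3 member peaks after 1 given replicate is dropped, the ratio was 1.02 to 1.05, depending on the replicate. These reduced lists keep the bounds joined over all 3 replicates. The filter also favours untreated regions with more member peaks, which are wider (median 477 bp at 3 and 698 bp at 4). That by itself lowers the ratio, so the fall says nothing about a single replicate.

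**Figure D1:**
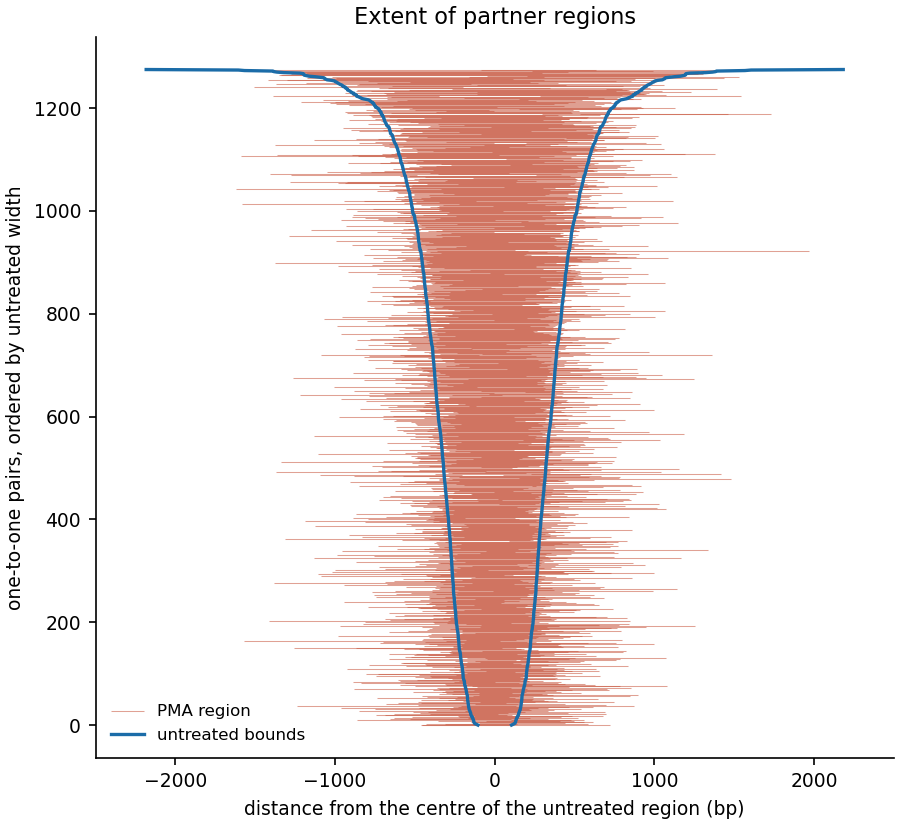
Each of the 1276 one-to-one pairs is a row, ordered by the width of the untreated region; the x axis is the distance in bp from that region's centre, blue lines mark the untreated bounds and red bars the PMA region. Red bars run past the blue bounds in most rows where the untreated region is narrow, and 177 PMA regions lie wholly inside their partner. Ordering by untreated width favours the former. The narrowest PMA region of a pair is 389 bp and the narrowest untreated region 211 bp.

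Enrichment was similar in size on both sides of a pair. The median fold of IP over input was 3.67 (3.61 to 3.73) for the untreated and 3.57 (3.51 to 3.64) for the PMA region of a pair. The lists were also alike outside pairs, with medians of 3.65 and 3.50 in the whole lists and 3.65 and 3.43 among unshared regions. Both regions of a pair had to be called as peaks, which by itself limits how far their folds can differ. The median log2 ratio of PMA over untreated fold was -0.032 (interval -0.049 to -0.014), and 697 pairs had the higher fold in untreated cells against 579 after PMA. Among pairs whose untreated region holds at least 3 member peaks besides those of replicate 1, the median was 0.016 (-0.018 to 0.052), on the other side of 0. These folds still average the peaks of replicate 1, so which regions remain differs here, not the values of a replicate. Folds differed by less than 1.5 times in 1204 pairs (94.4%, exact 95% interval 92.9 to 95.6) and by less than 1.2 times in 771. The PMA fold was at least 1.5 times the untreated one in 26 pairs (2.04%), and the reverse held in 46 pairs (3.61%). The log2 folds of partners were correlated (Pearson r = 0.66, Spearman rho = 0.63 over 1276 pairs). Regions of a list share libraries, so this is a description of the lists.

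**Figure D2:**
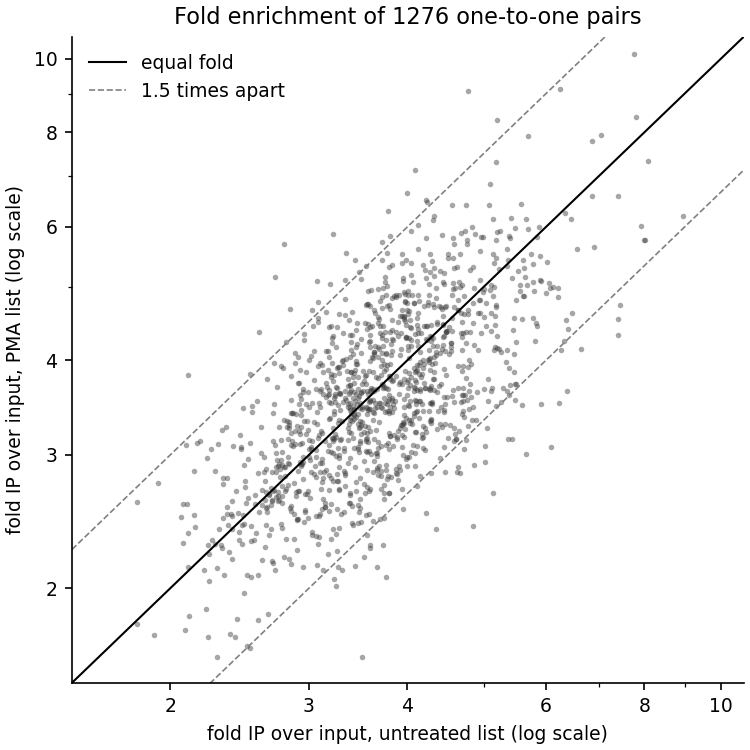
Fold enrichment of IP over input in the PMA list against that in the untreated list for 1276 one-to-one pairs, both axes logarithmic; each point is a pair, the solid line marks equal folds and dashed lines folds 1.5 times apart. Of the pairs, 1204 lie between the dashed lines, 26 above and 46 below.

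The PMA region had the higher mean -log10 q in 914 pairs (71.6%), with a median of 5.44 against 3.98. It did so in 572 of the 579 pairs with the higher fold after PMA and in 342 of the 697 with the higher fold in untreated cells. Read depth, on which a q value depends, is unknown. Pairs in the highest quartile of relative width (a median of 1.96 times wider after PMA) had a median log2 fold ratio of 0.022 (-0.023 to 0.052). In the lowest quartile, where the PMA region was narrower at 0.80 times the untreated width, it was -0.078 (-0.119 to -0.043).

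Ordered by the lower fold of each pair, the 10 strongest lay on 7 chromosomes. Beyond the first 3 by this rank (on chromosomes 14, 8 and 4, with lower folds of 7.33 to 7.80), the next was on chromosome 5. There the untreated region chr5:101092810-101093841 had a fold of 7.04 and its partner chr5:101092980-101094064 one of 7.93. The untreated region chr8:8653481-8654227 had a fold of 6.87 and its partner, 1417 bp wide, 7.80. Another region of that chromosome, chr8:98406032-98407090, had 7.40 untreated and 6.60 after PMA. All 10 had folds above 6 in both lists, where the median shared region had less than 4. A high fold did not go with sharing in the untreated list. Of its 100 regions with the highest fold 16 were shared, near the 15.5% of the whole list. In the PMA list 80 of the top 100 were shared, against 54.8% of the whole list.

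On chromosome 12, a narrow untreated region of 353 bp (chr12:20220637-20220989, fold 6.87) lay wholly inside a PMA region of 746 bp with a fold of 6.59. On the same chromosome, chr12:101585327-101585852 had 6.34 and its partner 6.26, the closest match of the 10. Chromosome 10 gave the pair with the widest difference toward untreated cells, 9.26 against 6.33 at chr10:75123434-75124263. Chromosome 7 gave the widest toward PMA, 6.25 against 9.12 at chr7:52075122-52075718. Of these 10 regions, 5 had the higher fold after PMA and 5 in untreated cells.

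Among one-to-one pairs, the largest differences in fold reached about 2 times. Toward PMA, the first of these pairs was chr6:134090727-134091878, with a fold of 2.79 untreated and 5.70 after PMA, or 2.04 times. Its member peaks in the untreated list came from replicates 2 and 3 only. Next came chr19:24343348-24343882, with 4.78 and 9.07, and chr3:138533400-138534430, with 2.71 and 5.15. The 5 were completed by chr6:72665981-72666544, with 3.22 and 5.87, and chr11:77963560-77964128, with 2.11 and 3.83. In the last, the untreated region had a mean -log10 q of only 0.467 and held no peak of replicate 2. In all 5 the PMA region was the wider one.

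Toward untreated cells, the first one-to-one pair was chr14:69863749-69864360, at 3.50 untreated and 1.62 after PMA, where 1.62 is the lowest fold of any shared PMA region. It was followed by chr11:69399089-69399940, at 4.84 and 2.42, and chr13:103670120-103671542, at 6.10 and 3.07. The others were chr2:173910273-173910980, at 5.14 and 2.67, and chr3:32508731-32509463, at 5.66 and 3.00. Overlap was short in 2 of these, 177 bp on chromosome 13 and 178 bp on chromosome 3, so the partners there describe mostly different bases. In the pairs on chromosomes 2 and 3 the untreated region held no peak of replicate 3. The mean -log10 q of the PMA region was 1.48 in the chromosome 14 pair, 1.96 on chromosome 2 and 1.58 on chromosome 3. In stretches with several partners, single overlaps reached 2.05 times toward PMA at chr10:75122805-75123109 (3.08 against 6.33) and 2.38 times toward untreated cells at chr14:120788586-120790086 (4.69 against 1.98). The PMA region at 6.33 is the same one that met the untreated region at 9.26 named above. On chromosome 14 the overlap was only 152 bp, in regions of 1501 and 1780 bp. With 1 value per list, no pair can be tested for a change.

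A region built from more peaks was more often shared. Among untreated regions with 3 member peaks 11.2% (10.5 to 11.9) had a PMA partner, among those with 4 it was 23.9% (21.8 to 26.1), with 5 38.0% (33.5 to 42.6), and with 6 or more 59.8% (53.3 to 66.0). The same order was seen in the PMA list, with 51.6% (49.5 to 53.7), 69.1% (63.8 to 74.0), 77.6% (65.8 to 86.9) and 82.8% (64.2 to 94.2). Width moved with the number of member peaks, with medians of 477, 698, 963 and 1343 bp in the untreated list, and a wider region has more bases at which to meet another; its part in the result was not tested. At 3 member peaks, shared untreated regions were wider than unshared ones, 557 against 467 bp. All 47 PMA regions over 2000 bp wide had an untreated partner, against 44 of the 208 that were 500 bp or less.

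**Figure D3:**
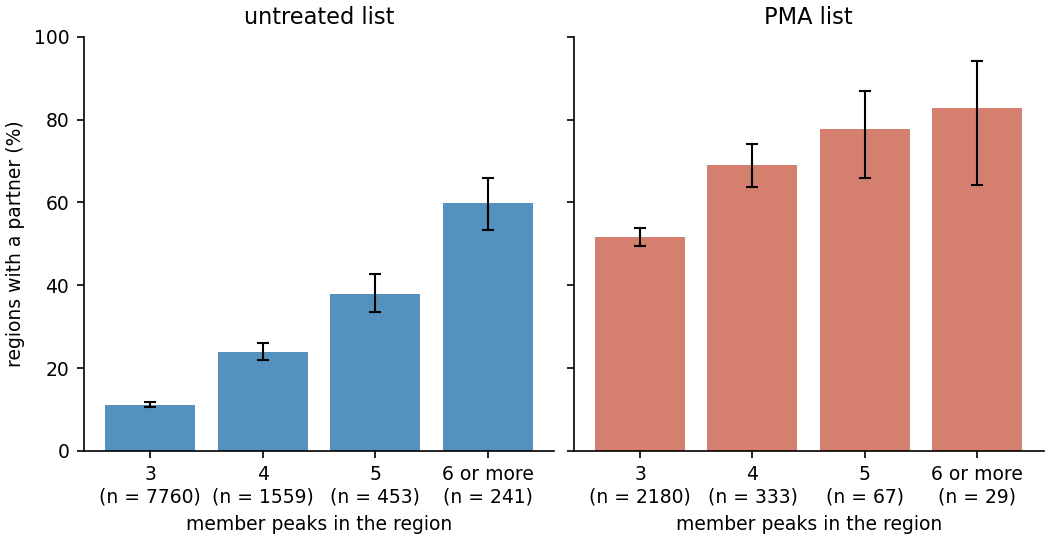
Percent of regions with a partner in the other list, by the number of member peaks joined in the region, for the untreated list on the left and the PMA list on the right; bars are shares, error bars exact 95% binomial intervals for counting error, and n is the number of regions. The untreated share goes from 11.2% to 59.8% and the PMA share from 51.6% to 82.8%.

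By replicates of origin, most shares in the untreated list lay near the 15.5% of the whole list. Untreated regions with peaks from all 3 replicates were shared in 15.7% of cases (14.9 to 16.4), those from replicates 1 and 2 in 15.6% (12.3 to 19.3), those from 2 and 3 in 17.1% (11.0 to 24.7) and those from 1 and 3 in 8.94% (5.69 to 13.2). Exactly 1 peak of each replicate gave 11.0% (10.2 to 11.7), while at least 2 peaks of each gave 64.7% (56.2 to 72.7) of 139 regions. These sets also differ in number of member peaks, and regions with 3 had 11.2% and those with 6 or more 59.8%. In the whole PMA list 54.8% of regions were shared. Its regions with exactly 2 peaks of replicate 2 and 1 of replicate 3 were shared in 54.7% (51.9 to 57.5). Those with 1 and 2 were shared in 47.6% (44.3 to 50.8).

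Some shared untreated regions did not need any single replicate to reach 3 member peaks. Of the 632 untreated regions that keep at least 3 member peaks whichever replicate is left out, 293 (46.4%, 42.4 to 50.3) had a PMA partner. They were 18.8% of the shared untreated regions. Their median width was 1202 bp and their median fold 3.48, against 638 bp and 3.67 for the other 1262. Overlap was scored on bounds joined over all 3 replicates, so whether it would remain without the peaks of a replicate is not known. In the whole untreated list, the share with a partner was 38.0% at 5 member peaks and 59.8% at 6 or more, so the 46.4% also goes with peak number. The set of 632 regions was defined after the member peaks were seen.

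Most shared stretches had no other shared stretch within 10 kb, and a minority lay close together. Another shared stretch was found within 10 kb of 501 of 1414 stretches (35.4%, 32.9 to 38.0), and 133 had one within 1 kb. In the whole lists, 63.7% of untreated and 42.1% of PMA regions had a region of their own list within 10 kb, and these shares depend on list length. Joined at gaps of up to 10 kb, the stretches formed 1112 loci, of which 913 held 1 stretch, 146 held 2, 41 held 3 or 4 and 12 held 5 or more. An unshared untreated region lay within 10 kb of 1024 stretches (72.4%), and an unshared PMA region within 10 kb of 297 (21.0%). Stretches with no other region of either list numbered 280 within 10 kb (19.8%) and 106 within 50 kb. Inside the 12 loci chosen for most shared stretches, 76 of 82 PMA regions (92.7%) and 86 of 143 untreated regions (60.1%) had a partner. In the whole lists these shares were 54.8% and 15.5%. Loci are bounded by shared stretches, which by itself raises both shares.

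The largest locus was on chromosome 17, chr17:12935060-13011699. It held 13 stretches in 76.6 kb, and stretches covered 33.4 kb of it. All 14 PMA regions of the locus had an untreated partner, while 15 of 40 untreated regions had a PMA partner. Enrichment was low, with median folds of 2.41 untreated and 2.20 after PMA, where the medians of all shared regions were 3.63 and 3.56. Counting the strongest region on each side, the fold was higher in untreated cells in 11 of its 13 stretches. Over all one-to-one pairs this share was 54.6%.

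That locus also held the widest shared region of either list, chr17:12947058-12955207, which spans 8150 bp and joins 15 member peaks at a fold of 2.52. In the PMA list it met separate regions, chr17:12947074-12948755 at a fold of 1.67 and chr17:12950716-12954236 at 3.12. Those join 3 and 6 member peaks, numbered as replicates 2 and 3 like all of that list. Whether the split goes with PMA or with how peaks were joined cannot be told apart. At the lower end of the locus, chr17:12935060-12939426 had 3.02 and its PMA partner 2.35. At the upper end, chr17:13010118-13011699 had 3.03 and its partner 2.37. Between them, chr17:12986701-12987916 had 2.41 and its partner 1.72. Member peaks in these untreated regions numbered 3 to 15.

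The next loci were shorter and more strongly enriched. A locus of 7 stretches in 32.6 kb on chromosome 15 (chr15:31162934-31195579) had median folds of 4.21 untreated and 4.29 after PMA, with the PMA fold higher in 5 of 7 stretches. Over all one-to-one pairs the PMA fold was higher in 45.4%. Within the chromosome 15 locus, chr15:31168145-31169199 had 5.14 and its partner 6.15. The strongest untreated region of that locus, chr15:31193338-31194618 at 6.97, had no PMA partner and ended just before a shared one at 4.33. A 6-stretch locus on chromosome 7 (chr7:103843413-103868800) had medians of 3.55 and 3.50, and one on chromosome 3 (chr3:108785108-108801393) 3.48 and 3.35.

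Near-continuous enrichment was seen at chr13:56185692-56196936, where 5 stretches covered 10.6 of 11.2 kb and gaps were at most 0.352 kb. All 7 untreated and all 5 PMA regions there had partners. Its last stretch had the highest folds, 5.95 at chr13:56195196-56196833 and 5.36 in a 4085 bp PMA region. At chr18:69822410-69834778, all 6 untreated and all 5 PMA regions had partners as well, with medians of 2.74 and 3.06. Within it, chr18:69828226-69830326 had a fold of 2.59 and its partner 4.36, and chr18:69834326-69834778 had 2.43 against 4.44 for the PMA region it met. That PMA region also met a second untreated one at 3.87. The loci were chosen for their number of shared stretches, so these counts describe them and no more.

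**Figure D4:**
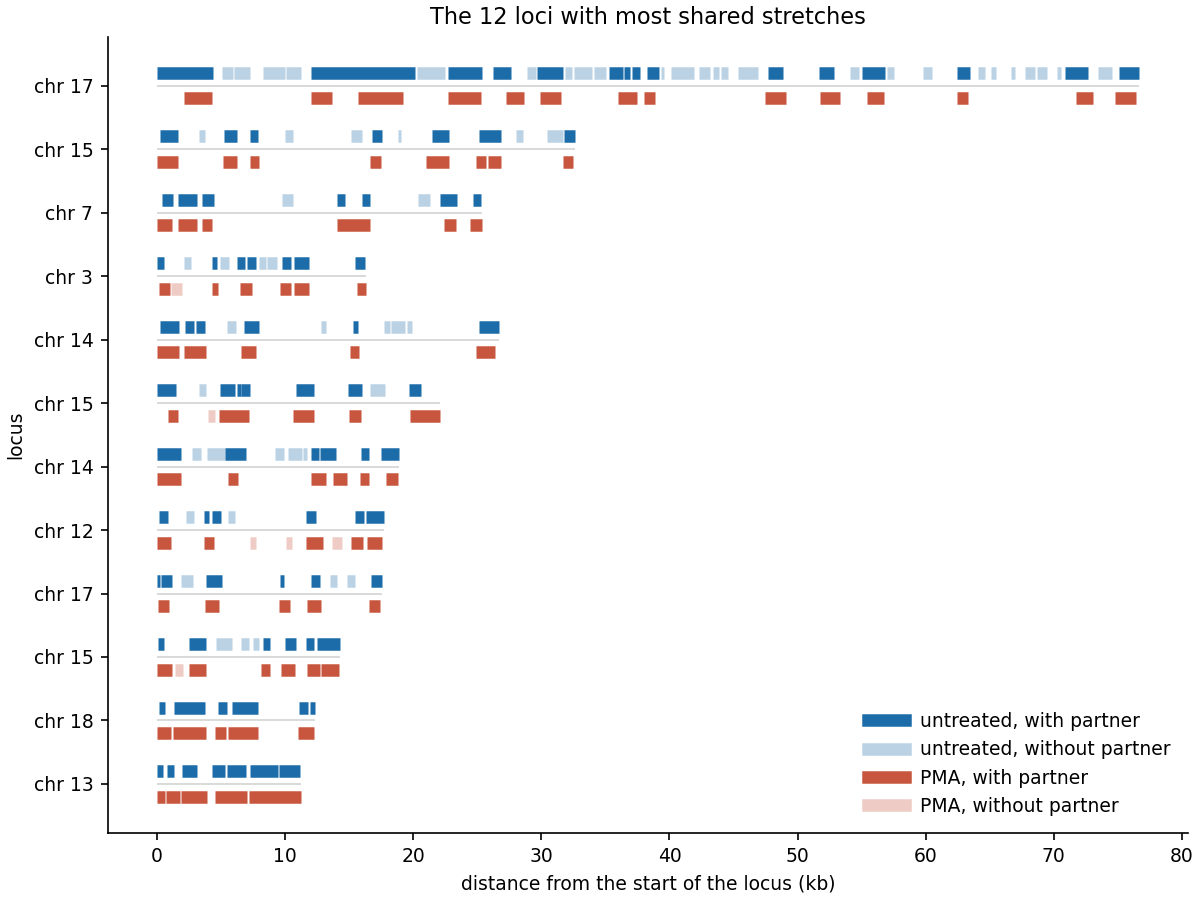
The 12 loci with most shared stretches, 1 row each with its chromosome at the left; the x axis is the distance in kb from the start of the locus, untreated regions are blue and drawn above, PMA regions red and below, and pale bars have no partner in the other list. The chromosome 17 locus is the longest at 76.6 kb, with 25 pale untreated regions and no pale PMA region.

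Neighbouring pairs were alike in fold more than in the ratio between conditions. Over 237 consecutive one-to-one pairs of a locus, the log2 untreated folds of neighbours were correlated at Pearson r = 0.39. The log2 ratios of PMA over untreated fold gave r = -0.028 and Spearman rho = -0.0025, and 116 of the 237 (48.9%) had the same sign. Neighbours share libraries and possibly transcripts, so these are descriptions. In the 41 loci with at least 3 one-to-one pairs the SD of the log2 ratio within a locus was 0.26, against 0.31 over all pairs. An SD within a locus rests on few pairs, so no likeness within loci is read from it. All ratios pointed to PMA in 1 of these loci and to untreated cells in 6. Over all one-to-one pairs, 54.6% had the higher fold in untreated cells and 45.4% after PMA.

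In windows of 1 Mb, the fullest was again on chromosome 17 (chr17:12360396-13143785), with 16 stretches and PMA folds below untreated ones in 12. This window contains the largest locus described above, so their counts overlap. Next was chr14:69863749-70712574 with 15 stretches, where untreated folds were higher in 12 as well, with medians of 3.35 and 2.80. Over all one-to-one pairs, untreated folds were higher in 54.6%. The others were chr14:26280875-26567517 with 13 stretches, and chr7:103702443-103989381 and chr14:34072207-34175362 with 12 each. In the last, all 13 PMA regions and 14 of 29 untreated regions had partners, at medians of 3.57 on both sides.

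Stretches with many partners were places where the lists split the same ground differently. At chr10:39366182-39370170, 4 untreated regions with folds of 2.60 to 3.74 met 2 PMA regions with 2.39 and 3.36. At chr2:33074084-33079520, 3 untreated regions at 3.97 to 4.78 met 2 PMA regions at 3.57 and 4.63. At chr11:88165492-88169587, 3 untreated regions at 4.25 to 4.62 met a single 3513 bp PMA region at 4.45. At chr12:9581272-9585239, untreated regions of 4.48 and 3.74, the latter with 12 member peaks, met PMA regions of 4.69 and 3.66. On chromosome 1 (chr1:90169826-90173753), a single PMA region at 2.07 met 3 untreated regions at 2.20 to 3.54. It overlapped the one at 3.54, which is 1533 bp wide, by only 95 bp. Besides those on chromosomes 17 and 2, the widest stretches included chr1:92720241-92726247, where an untreated region of 6007 bp with 15 member peaks had a fold of 2.06 and its 2 partners 1.74 and 1.98. Another, chr18:61820112-61824580, was a PMA region of 4469 bp at 3.37 over untreated regions at 3.25 and 3.56.

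The share of regions with a partner varied over chromosomes. Chromosome 14 had the highest shares, 19.3% of its untreated regions (16.0 to 22.9) and 66.7% of its PMA regions (58.3 to 74.3). Chromosome 16 had the lowest of the autosomes, 10.8% (7.34 to 15.1) and 40.6% (28.5 to 53.6). For 17 of 20 chromosomes in the untreated list and 18 of 20 in the PMA list, the exact 95% interval held the share of the whole list, with no adjustment over chromosomes. Chromosome 10 held the most stretches, 129 or 9.12% of all.

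The X chromosome held 11 shared pairs. They were 7.33% of its untreated regions (3.72 to 12.7) but 61.1% of its 18 PMA regions (35.7 to 82.7). The whole lists had 15.5% and 54.8%. The untreated fold of these pairs went from 2.16 to 7.40 with a median of 3.81, and the PMA fold from 3.11 to 6.52 with a median of 4.0. In 8 of 11 the PMA fold was higher, among them chrX:13159715-13160380 at 2.16 against 3.11 and chrX:130744716-130745289 at 4.23 against 6.52. Over all one-to-one pairs the PMA fold was higher in 45.4%. The X pairs are few and were chosen after their values were seen, so no shift of the X is read from them. The pair with the highest untreated fold, chrX:162817207-162817847, went the other way, at 7.40 against 4.53.

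**Figure D5:**
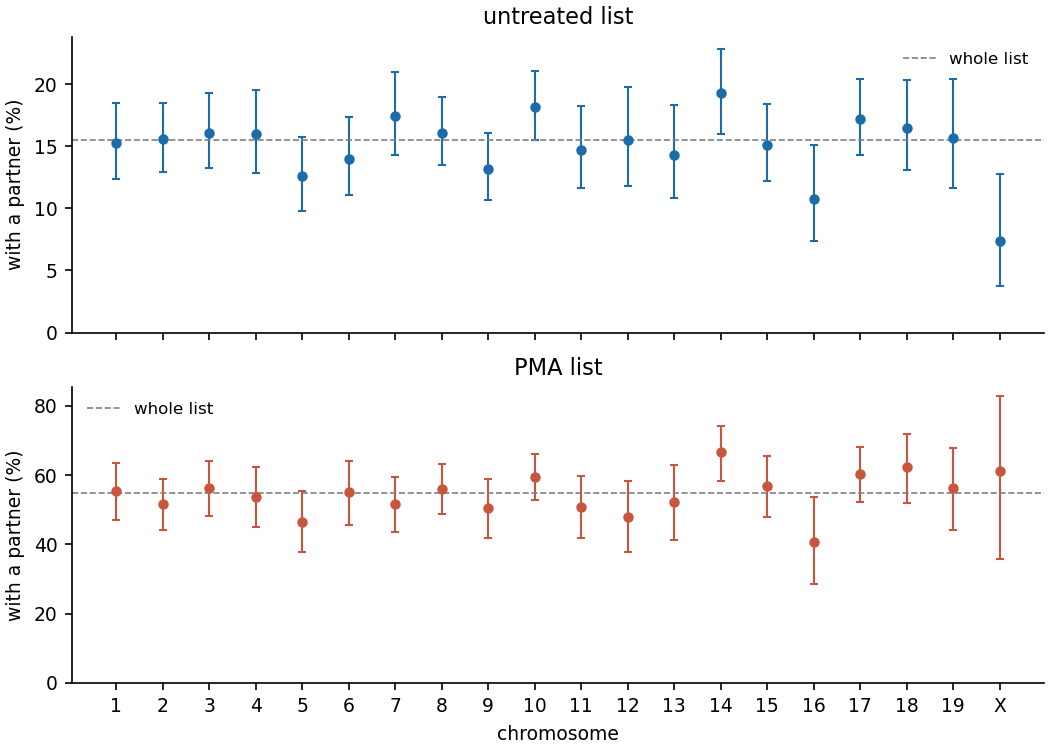
Percent of regions with a partner in the other list by chromosome, for the untreated list above and the PMA list below; points are shares, error bars exact 95% binomial intervals for counting error, and the dashed line is the share of the whole list. Chromosome 14 has the highest share of the autosomes in both panels and chromosome 16 the lowest, and the X is lowest in the untreated panel only.

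Few members sat near the 1 bp limit that chose them. Overlaps of at most 10 bp were found in 3 of 1572 overlapping pairs, and of at most 100 bp in 22. The shortest were 3 bp, at chr12:9582508-9585239 and its lower partner (folds 3.74 and 4.69) and at chr19:46720240-46721492 (5.92 and 2.78). An overlap of 5 bp was found on chromosome 18, of 16 bp on chromosome 8 and of 19 bp on chromosome 6. Just outside, no unshared untreated region lay within 10 bp of a PMA region and 38 lay within 100 bp. The nearest was chr18:36672018-36672260, 17 bp from a PMA region, with folds of 2.44 and 1.93. Next were regions on chromosomes 10, 11, 6 and 4 at 18 to 26 bp, with untreated folds of 2.18 to 4.78.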

How the data were processed

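RNA of HP1γ IP and input was sequenced in 12 libraries. Per the submitters' processing notes, tools included MACS2 2.1.0 and STAR 2.5.0a and the build was mm9; peak settings were not stated. The deposited lists give a score, a fold (ratio of IP over input) and a -log10 q value per region, read here as means over member peaks: scores times the number of member peaks were whole within 0.001 in all 10013 untreated and 2609 PMA regions, and the other columns were not tested. The mean summit offset gives no position in a joined region and was not used.

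Partners overlap by at least 1 bp. Connected partners form a stretch, and stretches at most 10 kb apart a locus. Medians carry order-statistic and shares exact Clopper-Pearson 95% intervals, for counting error only; regions are not independent. Code (Python 3.11.15, pandas 2.3.3, numpy 2.4.6, scipy 1.17.1, matplotlib 3.10.9) was tested on simulated lists with known partners. Regions were named by fixed ranks: strongest by smaller fold (10), and 5 each by fold ratio in either direction, distance to the limit, number of partners, width and window. Loci, X pairs and neighbours were chosen after their values were seen. Members and lists were chosen with earlier results of these data known. Planned gene, intron and motif results need an mm9 reference and were not run.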

Additional observations from a re-analysis of the deposited data

How the results depend on the processing

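No paired analysis was possible because the lists hold no values per library. Of 69 alternative values for 8 results, 34 stayed within their limits (1.5 times for a count, the 95% interval for a median or share), 34 moved and 1 turned its sign; the cause was not tested. Results on introns, CACACA and GC were not run. Without 1 untreated replicate, 513 to 660 untreated and 514 to 653 PMA regions were shared, in 500 to 637 stretches, because fewer untreated regions keep 3 member peaks. The untreated median fold was then 3.47 to 3.67, the width ratio 1.02 to 1.05, the share of stretches with a neighbour 23.6% to 25.9%, and the median log2 fold ratio -0.035 to 0.016, the latter for regions kept without replicate 1, by folds that still average it. With the untreated list limited to PMA length by -log10 q, 509 untreated and 501 PMA regions were shared in 491 stretches, with median folds of 4.25 and 3.72, a log2 ratio of -0.16 and 26.3% with a neighbour. A mean -log10 q of at least 3 gave folds of 3.87 and 3.68 and 29.5% with a neighbour. Centres within 200 bp gave 999 untreated regions, a width ratio of 1.14 and 24.7% with a neighbour, and gaps up to 1 kb gave 32.1%. Neighbours within 5 and 50 kb were found for 26.3% and 54.1%. Pairs with 3 member peaks on both sides, chosen after seeing the data, gave a log2 ratio of -0.050 and a width ratio of 1.34. Using the strongest fold on each side of every stretch, also added then, kept the log2 ratio within its interval. Read depth is unknown for every library, so no limit of detection can be given.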
